A study of Mus musculus with 18 samples.

Results

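The genes described here copy DNA and supply the nucleotides for it: 41 mouse genes for origin licensing, helicase activation, DNA polymerases and primase, the sliding clamp and lagging strand, chromatin copying, and nucleotide supply. They were chosen by name, and each was read from the brightest probe set of an expression microarray whose only gene symbol was that of the gene. This gave 40 of the 41 genes, all of which passed the filter on low values, among 13034 genes tested in all. Rfc4, a subunit of the clamp loader, had a probe set shared with Eif4a2 and has no value in what follows.

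RNA was measured in invariant natural killer T (iNKT) cells, thymus-derived T cells whose receptor recognises lipids on the CD1d molecule. The 6 groups, with 3 arrays each, were Mst1KO S1, Mst1KO S2, Mst1KO S3, WT S1, WT S2 and WT S3, all of C57BL/6 strain and all from the thymus. Mst1KO mice carried floxed Mst1 alleles and Cre driven by Cd4 (Cd4Cre Mst1 fl/fl), so that Stk4, the gene of the Hippo pathway kinase MST1, was targeted in T-lineage cells and other cells of the animal were left with it. WT mice were the comparison, with no allele or Cre given in their labels. Every population was sorted as TCRb+, CD1d-PBS57 tetramer+ and CD24-, after an enrichment with CD8 microbeads. S1 cells were CD44- NK1.1-, S2 cells CD44+ NK1.1- and S3 cells CD44+ NK1.1+. Ages are not given in the labels. The design gives 3 mice per genotype, the labels tie no replicate number to a mouse, and p-values therefore speak only of the spread among these arrays, part of which could be technical.

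Values are log2 expression. A difference is the first group minus the second on the log2 scale, with its standard error (SE) and 3 arrays per group, and a gene is called higher or lower at a limma p-value below 0.05 after Benjamini-Hochberg adjustment over all 13034 genes. Array medians lay between 4.81 and 4.93. Some genes read well below them, such as Klrb1c, the NK1.1 gene, at 2.90 in Mst1KO S1 and 3.08 in WT S1. The floor of each probe set is not known, and differences of genes read near or below the medians may be compressed. Arrays of the same group correlated across probe sets at 0.976 to 0.986. Stk4 itself averaged 7.61 ± 0.05, 7.48 ± 0.07 and 7.66 ± 0.09 at S1, S2 and S3 in Mst1KO, against 7.90 ± 0.20, 7.83 ± 0.09 and 8.04 ± 0.21 in WT (SD, n = 3 each). Mst1KO minus WT was -0.29 (adjusted p = 0.34), -0.35 (0.173) and -0.39 (0.0767) along the stages, with an SE of 0.11, so it was lower in Mst1KO without being called, and the labels do not say which part of the gene the probe set covers.

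A cell copies its genome once in each division. In G1 phase the origin recognition complex, Cdc6 and Cdt1 load the Mcm2 to Mcm7 ring onto DNA. In S phase Mcm10, Cdc45 and the GINS complex turn the ring into an active helicase, DNA polymerase alpha with primase starts each strand, and polymerases epsilon and delta extend it on the Pcna clamp. Ribonucleotide reductase, thymidylate synthase and thymidine kinase make the deoxynucleotides, and the chromatin assembly factor CAF-1 and Uhrf1 restore histones and DNA methylation behind the fork. Many of these genes are known targets of E2F transcription factors, which the retinoblastoma protein restrains in resting cells. In the mouse thymus, iNKT cells are known to divide at the early stages and to become largely quiescent as they acquire NK1.1.

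Promoter sequence was available in the RefSeq table (build GRCm38.p6) for 35 of the 41 genes, as windows of 300 bases in which base 251 is the transcription start. The E2F motif was searched on both strands as the letters TTTCCCGC, TTTCGCGC, TTTGCCGC and TTTGGCGC, which can overlap each other on opposite strands. It was present for 14 of the 35 genes (40.0%), for 1 of 22 mitosis genes with a window (4.55%) and for 704 of all 27025 genes with a window searched (2.60%). Windows on 1 chromosome, which holds none of the 41 genes, were left out of all these counts. The letters TTTGAA, the CHR element of many mitosis genes, showed the other order, with 5 of 35 replication and nucleotide genes (14.3%), 16 of 22 mitosis genes (72.7%) and 20.2% of all genes. A match is a description of the window and no proof of a site. The windows of the 35 genes and of all genes also differ in base composition, with median GC contents of 60.0% and 52.8%.

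4 windows are shown, with the E2F letters in capitals and offsets counted from the start site. Cdc6 was among the genes that fell most from S1 to S3 and holds the letters once, at offset -138. Its window begins at base 98907901, inside the gene, whose annotated span begins at 98907709. The Cdc6 offset is therefore counted from the start site of the window and not from that gene start. Mcm6 holds them at -110, -106 and -47, the most of any of these genes, and the first 2 matches overlap. Cdt1 holds them at 32 and was not called in any stage comparison. Pold1 holds them at 39 and was called higher in Mst1KO at S3.
Cdc6 (chr11:98907901-98908200, plus strand): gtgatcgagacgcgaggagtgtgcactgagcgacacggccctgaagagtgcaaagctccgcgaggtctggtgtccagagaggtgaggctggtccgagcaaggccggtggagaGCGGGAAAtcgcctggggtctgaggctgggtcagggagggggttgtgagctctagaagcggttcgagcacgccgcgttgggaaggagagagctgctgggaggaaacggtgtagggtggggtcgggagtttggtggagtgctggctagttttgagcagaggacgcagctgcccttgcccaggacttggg
Mcm6 (chr1:128359656-128359955, minus strand): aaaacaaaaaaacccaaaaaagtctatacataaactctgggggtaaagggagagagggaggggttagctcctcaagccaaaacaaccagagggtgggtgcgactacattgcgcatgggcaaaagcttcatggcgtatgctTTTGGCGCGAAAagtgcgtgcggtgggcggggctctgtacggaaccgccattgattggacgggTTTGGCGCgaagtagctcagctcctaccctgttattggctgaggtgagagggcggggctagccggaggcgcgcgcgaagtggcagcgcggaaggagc
Cdt1 (chr8:122567765-122568064, plus strand): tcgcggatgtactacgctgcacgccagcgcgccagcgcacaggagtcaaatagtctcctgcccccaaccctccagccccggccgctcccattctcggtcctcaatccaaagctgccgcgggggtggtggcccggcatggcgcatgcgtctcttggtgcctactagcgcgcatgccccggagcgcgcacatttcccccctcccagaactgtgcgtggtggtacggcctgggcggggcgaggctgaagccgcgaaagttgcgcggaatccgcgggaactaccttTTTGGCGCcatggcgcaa
Pold1 (chr7:44548766-44549065, minus strand): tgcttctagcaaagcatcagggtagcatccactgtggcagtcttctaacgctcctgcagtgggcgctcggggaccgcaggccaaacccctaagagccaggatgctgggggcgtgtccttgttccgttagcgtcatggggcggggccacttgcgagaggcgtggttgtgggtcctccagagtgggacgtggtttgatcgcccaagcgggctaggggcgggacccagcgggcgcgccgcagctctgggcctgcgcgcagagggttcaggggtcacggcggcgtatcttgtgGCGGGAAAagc

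Along the stages the genes fell together in both genotypes. From S1 to S3, 34 of 40 were called lower in Mst1KO and 38 of 40 in WT, and 0 were called higher in either. Of all genes tested, 14.4% were called lower and 12.3% higher in Mst1KO, and 18.4% lower and 15.4% higher in WT. The median difference of the 40 genes was -1.10 in Mst1KO and -1.31 in WT, while the median of all genes lay at -0.01 and -0.00. A fall of more than 1 log2 unit was reached by 21 genes in Mst1KO and by 26 in WT. In bulk RNA, fewer cells of a dividing type and less of each RNA per cell cannot be told apart. The 34 genes called in Mst1KO were all among the 38 called in WT, and without single arrays the counts ran over 32 to 33 in Mst1KO and 34 to 37 in WT.

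Within each genotype, the median of the 40 genes separated the stages on every array. It lay at 8.24 to 8.35 at S1, 7.79 to 7.88 at S2, then 7.04 to 7.27 at S3 on the Mst1KO arrays, and at 8.45 to 8.66, 7.86 to 8.32 and 6.90 to 7.20 on the WT arrays. At S1 the genotypes did not overlap and Mst1KO was lower; at S2 and S3 the ranges overlapped. Group means descended from S1 through S2 to S3 for 37 genes in Mst1KO (not for Cdt1, Pold1 and Pold2) and for 38 genes in WT (not for Cdt1 and Dut). For 24 genes in Mst1KO and 21 in WT, every S1 array lay above every S2 array and every S2 array above every S3 array. These counts of ordered means and arrays were not made over all genes, so how unusual they are was not tested.

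**Figure D1:**
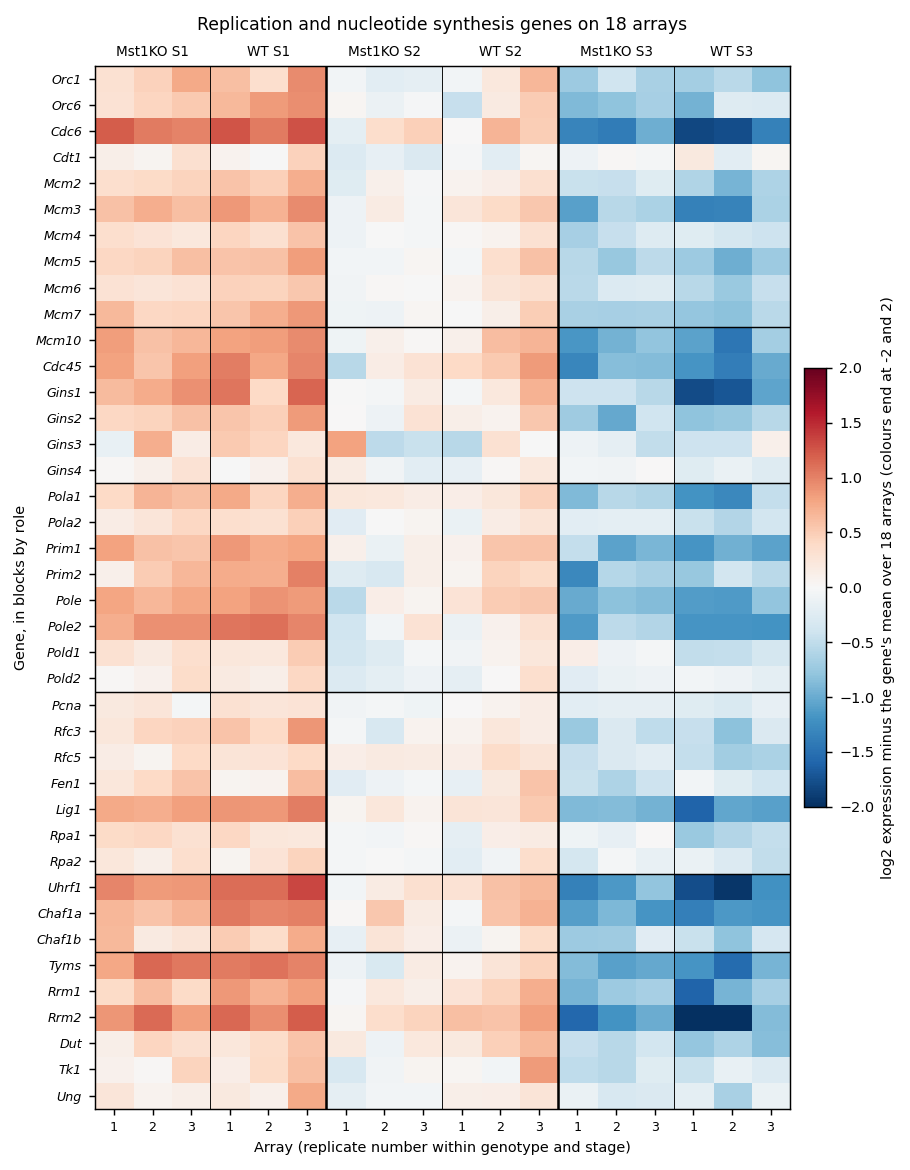
Heat map of the 40 genes (rows, in blocks by role) on 18 arrays (columns, by stage with Mst1KO left of WT), coloured by log2 expression minus the gene's own mean, with colours ending at -2 and 2. S1 arrays are red for most genes and S3 arrays blue, with the deepest blue for Rrm2, Uhrf1, Cdc6 and Gins1 on WT S3 arrays. Cdt1 shows no such order, and Gins3 shows it weakly, with S1 and S3 arrays that overlap in Mst1KO.

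Of the 10 origin licensing genes, 9 were called lower from S1 to S3 in each genotype, all but Cdt1. Cdc6, which helps load the helicase, read 8.51, 8.33 and 8.28 at S1, 7.10, 7.64 and 7.78 at S2, then 5.97, 5.90 and 6.33 at S3 in Mst1KO. In WT it read 8.55, 8.34 and 8.57 at S1, 7.31, 7.98 and 7.79 at S2, then 5.48, 5.52 and 5.94 at S3. No stage overlapped with another in either genotype. From S1 to S3 Cdc6 changed by -2.31 in Mst1KO and by -2.84 in WT (SE 0.19 each; adjusted p = 1.3e-07 and 7.34e-09), which is 4.95-fold and 7.15-fold lower.

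The 6 helicase subunits Mcm2 to Mcm7 were all called lower from S1 to S3 in both genotypes, with log2 differences of -0.64 to -1.39 in Mst1KO and -0.77 to -1.95 in WT. Mcm7 read 9.03, 8.81 and 8.83 at S1, 8.31, 8.29 and 8.42 at S2, then 7.74, 7.72 and 7.75 at S3 in Mst1KO, against 8.95, 9.12 and 9.26, then 8.38, 8.52 and 8.88, then 7.61, 7.56 and 7.84 in WT. Its S3 arrays were the lowest in each genotype, and it changed by -1.15 ± 0.12 in Mst1KO and by -1.44 ± 0.12 in WT (adjusted p = 2.23e-06 and 1.13e-07). Orc1 and Orc6, of the origin recognition complex, changed by -1.10 and -1.20 in Mst1KO and by -1.30 and -1.31 in WT. Orc1 read 4.51 to 4.84 on the Mst1KO S3 arrays and 4.43 to 4.70 on the WT S3 arrays, at or under the array medians, so the size of its fall may be compressed.

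Cdt1, the partner of Cdc6 in loading, did not follow the other licensing genes. It read 7.54, 7.47 and 7.75 at S1, 7.15, 7.25 and 7.14 at S2, then 7.33, 7.44 and 7.39 at S3 in Mst1KO, against 7.49, 7.42 and 7.89, then 7.39, 7.21 and 7.47, then 7.62, 7.20 and 7.46 in WT. In Mst1KO the S3 arrays lay between the S2 and the S1 arrays with no overlap, and in WT the stages overlapped. Its S1 to S3 difference was -0.20 ± 0.13 in Mst1KO and -0.17 ± 0.13 in WT (adjusted p = 0.294 and 0.34).

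Among the helicase activators, Mcm10, Cdc45, Gins1 and Gins2 were called lower from S1 to S3 in both genotypes, with log2 differences of -1.19 to -1.74 in Mst1KO and -1.33 to -2.40 in WT. Cdc45, a subunit of the active helicase, read 7.81, 7.56 and 7.81 at S1, 6.44, 7.14 and 7.29 at S2, then 5.69, 6.14 and 6.13 at S3 in Mst1KO. In WT it read 8.02, 7.77 and 7.97 at S1, 7.39, 7.52 and 7.84 at S2, then 5.81, 5.61 and 5.98 at S3. In Mst1KO the stages did not overlap, while in WT the highest S2 array lay within the S1 range. It changed by -1.74 ± 0.19 in Mst1KO and by -2.12 ± 0.19 in WT (adjusted p = 3.18e-06 and 2.08e-07). Mcm10, which helps to activate the helicase, changed by -1.66 ± 0.17 in Mst1KO and by -1.93 ± 0.17 in WT.

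The 4 GINS genes encode the subunits of a single complex but did not move alike. Gins4 differed by -0.18 ± 0.12 from S1 to S3 in Mst1KO and was called lower in WT (-0.35 ± 0.12; adjusted p = 0.308 and 0.0349), a call lost in 4 of the 6 fits without an array (WT S3 replicates 1 and 3, WT S1 replicates 2 and 3). Gins3 differed by -0.51 ± 0.31 in Mst1KO and by -0.63 ± 0.31 in WT (adjusted p = 0.261 and 0.132). Its Mst1KO S2 arrays read 7.38, 6.05 and 6.13, with replicate 1 far above the other 2, and its WT S2 arrays 6.01, 6.88 and 6.57.

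All 8 polymerase and primase genes were called lower from S1 to S3 in WT and 6 of 8 in Mst1KO, Pold1 and Pold2 being the exceptions. Pole2, the second subunit of the leading-strand polymerase epsilon, read 7.18, 7.37 and 7.37 at S1, 6.06, 6.40 and 6.75 at S2, then 5.32, 5.93 and 5.87 at S3 in Mst1KO. In WT it read 7.52, 7.56 and 7.43 at S1, 6.34, 6.54 and 6.75 at S2, then 5.27, 5.27 and 5.26 at S3. All 3 stages were apart in each genotype, and the WT S3 arrays nearly coincided. Pole2 changed by -1.60 ± 0.17 in Mst1KO and by -2.24 ± 0.17 in WT (adjusted p = 1.84e-06 and 2.44e-08). Its catalytic partner Pole changed by -1.64 ± 0.15 and -1.87 ± 0.15, and the primase subunit Prim1 by -1.47 ± 0.15 and -1.87 ± 0.15, in Mst1KO and WT in that order.

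Pold1 and Pold2 are the catalytic and the second subunit of the lagging-strand polymerase delta. Pold1 read 9.28, 9.15 and 9.29 at S1, 8.60, 8.70 and 8.93 at S2, then 9.09, 8.87 and 8.93 at S3 in Mst1KO. In WT it read 9.19, 9.18 and 9.47 at S1, 8.89, 9.03 and 9.18 at S2, then 8.48, 8.48 and 8.62 at S3. In Mst1KO the S2 and S3 arrays overlapped, while in WT all S3 arrays lay below all others. From S1 to S3 it differed by -0.28 ± 0.11 in Mst1KO and changed by -0.76 ± 0.11 in WT (adjusted p = 0.0827 and 5.71e-05). Pold2 differed by -0.31 ± 0.13 in Mst1KO and changed by -0.35 ± 0.13 in WT (adjusted p = 0.0805 and 0.04), the WT call being lost in 5 of 6 fits without an array (all but WT S1 replicate 2).

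The 7 clamp, loader and lagging-strand genes were called lower from S1 to S3 in both genotypes, and Lig1, the ligase that joins Okazaki fragments, stood out by size. Lig1 read 9.75, 9.72 and 9.80 at S1, 9.04, 9.21 and 9.06 at S2, then 8.11, 8.12 and 8.05 at S3 in Mst1KO. WT values were 9.88, 9.85 and 10.01 at S1, 9.24, 9.24 and 9.52 at S2, then 7.39, 7.95 and 7.90 at S3. No stage overlapped with another in either genotype. Lig1 changed by -1.66 ± 0.13 in Mst1KO and by -2.17 ± 0.13 in WT (adjusted p = 4.59e-08 and 1.35e-09), and the other 6 genes changed by -0.32 to -0.89 and by -0.48 to -1.14.

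Pcna, the sliding clamp, fell by little but with close replicates. It read 11.30, 11.36 and 11.07 at S1, 11.04, 11.06 and 11.03 at S2, then 10.90, 10.94 and 10.92 at S3 in Mst1KO, against 11.42, 11.34 and 11.39, then 11.12, 11.18 and 11.26, then 10.87, 10.81 and 10.94 in WT. Within each genotype the stages were ordered on every array, with S1 to S3 differences of -0.32 ± 0.08 in Mst1KO and -0.51 ± 0.08 in WT (adjusted p = 0.00868 and 0.000142). The Mst1KO call of Pcna was lost without Mst1KO S1 replicate 2, and that of Rpa2, a subunit of the single-strand binding protein, in 5 of 6 fits without an array (all but Mst1KO S3 replicate 2). Fen1, the flap nuclease, lost its WT call in 3 of 6 fits (WT S1 replicate 3, WT S3 replicates 2 and 3), and also when its probe sets were averaged (adjusted p = 0.165).

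The 3 chromatin genes fell in both genotypes. Uhrf1, which guides DNA methylation to newly copied DNA, read 9.37, 9.23 and 9.26 at S1, 8.33, 8.54 and 8.70 at S2, then 7.03, 7.23 and 7.60 at S3 in Mst1KO. The WT arrays gave 9.50, 9.49 and 9.72 at S1, 8.68, 8.96 and 9.03 at S2, then 6.61, 6.44 and 7.18 at S3. No stage overlapped with another. Uhrf1 changed by -2.0 ± 0.17 in Mst1KO and by -2.83 ± 0.17 in WT (adjusted p = 2.37e-07 and 2.7e-09). Chaf1a and Chaf1b, both of CAF-1, changed by -1.70 ± 0.16 and -0.91 ± 0.18 in Mst1KO and by -2.24 ± 0.16 and -1.07 ± 0.18 in WT.

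In the nucleotide class, 5 of 6 genes were called lower from S1 to S3 in Mst1KO and all 6 in WT. Rrm2, the regulated subunit of ribonucleotide reductase, read 7.92, 8.17 and 7.85 at S1, 7.08, 7.39 and 7.48 at S2, then 5.46, 5.84 and 6.05 at S3 in Mst1KO. In WT its values were 8.19, 7.97 and 8.25 at S1, 7.64, 7.61 and 7.86 at S2, then 4.82, 4.89 and 6.17 at S3, where the last array stood well above the other 2 and those 2 were at the level of the array medians. Rrm2 changed by -2.20 ± 0.26 in Mst1KO and by -2.84 ± 0.26 in WT (adjusted p = 7.47e-06 and 2.52e-07). Tyms, thymidylate synthase, changed by -1.99 ± 0.15 in Mst1KO and by -2.26 ± 0.15 in WT (adjusted p = 5.9e-08 and 8.13e-09), with no overlap between stages in either genotype.

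Rrm1, the large subunit of ribonucleotide reductase, changed by -1.24 ± 0.18 in Mst1KO and by -1.86 ± 0.18 in WT. Dut, which removes dUTP, changed by -0.75 ± 0.13 and -1.14 ± 0.13, and Tk1, thymidine kinase, by -0.61 ± 0.20 and -0.66 ± 0.20. Ung, which cuts uracil out of DNA, differed by -0.39 ± 0.15 in Mst1KO and changed by -0.68 ± 0.15 in WT (adjusted p = 0.0732 and 0.00208). The Tk1 calls were lost in 3 of 6 fits without an array in Mst1KO (S3 replicates 1 and 2, S1 replicate 3) and in 2 of 6 in WT (S3 replicate 1, S1 replicate 3).

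**Figure D2:**
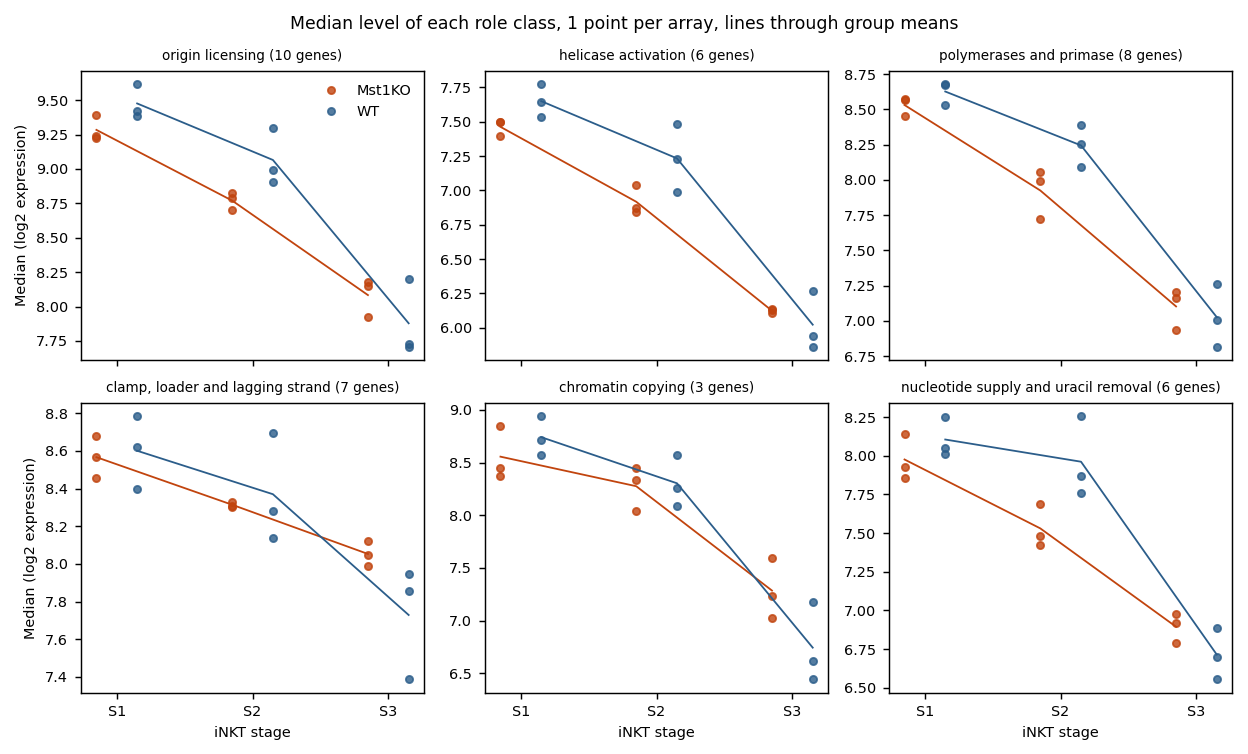
Median log2 expression of each role class (vertical axis, its own scale in each panel) by stage (horizontal axis), with Mst1KO left of WT, 1 point per array and lines through the means of 3 arrays. All 6 classes decline from S1 to S3, and the WT lines bend more steeply between S2 and S3 than the Mst1KO lines.

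In each genotype more of the genes were called lower from S2 to S3 than from S1 to S2. From S1 to S2, 16 of 40 genes were called lower in Mst1KO and 7 of 40 in WT, against 2.9% and 1.14% of all genes, with medians of -0.45 and -0.37. From S2 to S3, 24 of 40 were called lower in Mst1KO and 32 of 40 in WT, against 9.18% and 13.2% of all genes, with medians of -0.58 and -0.90. 0 of the 40 genes were called higher in these 4 comparisons, where 3.77% of all genes in Mst1KO and 2.7% in WT were from S1 to S2, and 8.01% and 10.4% from S2 to S3. The S2 arrays enter both steps.

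Among genes called lower from S1 to S3, the median share of that fall lying between S2 and S3 was 55.0% in Mst1KO (34 genes) and 72.6% in WT (38 genes). Over all genes called lower from S1 to S3 it was 62.8% in Mst1KO (1875 genes) and 73.2% in WT (2401 genes). For the 24 mitosis genes tested it was 80.9% in Mst1KO and 90.1% in WT. In Mst1KO the class medians ran between 41.6% for clamp, loader and lagging-strand genes and 69.8% for nucleotide genes.

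Tyms and Pole2 were among the genes that fell most in the first step. Tyms read 8.66, 9.03 and 8.93 at S1 and 7.77, 7.56 and 8.04 at S2 in Mst1KO, against 8.92, 8.96 and 8.87 at S1 and 7.94, 8.13 and 8.32 at S2 in WT, with no overlap in either genotype. It changed by -1.08 ± 0.15 in Mst1KO and by -0.79 ± 0.15 in WT (adjusted p = 0.000284 and 0.00608). Pole2 changed by -0.90 ± 0.17 and -0.96 ± 0.17 (adjusted p = 0.00282 and 0.00278), and Lig1 by -0.65 ± 0.13 and -0.58 ± 0.13 (adjusted p = 0.00349 and 0.0131), in Mst1KO and WT in that order. Cdc6, Mcm7 and Uhrf1 were also called in both genotypes. Chaf1a was called in WT alone, and 10 genes, Cdc45, Mcm10, Mcm2, Mcm3, Mcm5, Orc1, Pold1, Pole, Prim1 and Rpa1, in Mst1KO alone. The difference between genotypes in this step was not called for any of the 40 genes.

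Many S1 to S2 calls rested on single arrays. Only Tyms, Pole2, Pole and Lig1 in Mst1KO and Tyms and Pole2 in WT were called in each of the 6 fits without an array. The count in Mst1KO, 16 with all arrays, fell in each of the 6 fits, to between 6 and 12. It was 7, 6, 9 and 10 without S1 replicate 1, S2 replicate 1, S1 replicate 3 and S2 replicate 3. In WT it fell to 4, 2, 4 and 2 without S1 replicate 1, S2 replicate 1, S1 replicate 2 and S1 replicate 3.

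Between genotypes, no difference in the S2 to S3 change was called for any of the 40 genes. Of the 24 genes called in Mst1KO, 23 were also called among the 32 in WT. For all 23 the fall in Mst1KO was the smaller, at 42.6% (Mcm6) to 99.2% (Chaf1b) of the WT fall, with a median of 61.9%. The same comparison was not made over all genes called lower in both genotypes, so how unusual it is was not tested. Orc6 was called in Mst1KO alone (-0.75 ± 0.20 against -0.57 ± 0.20 in WT; adjusted p = 0.0162 and 0.0517). That call was lost without Mst1KO S2 replicate 1 or S3 replicate 1, and its WT difference was called under 4 of the other settings and in 3 fits without an array. Called in WT alone were Gins1, Mcm2, Orc1, Pcna, Pola2, Pold1, Rfc3, Rpa1 and Ung, of which Ung lost its call in 3 of 6 fits without an array (WT S2 replicates 2 and 3, WT S3 replicate 2). Across the 40 genes the S2 to S3 differences of the genotypes correlated with a Pearson r of 0.890, over arrays that share no sample, and genes are not independent replicates.

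In WT the largest falls of the second step were in Rrm2, Uhrf1 and Cdc6. Rrm2 changed by -1.53 ± 0.26 in Mst1KO and by -2.41 ± 0.26 in WT (adjusted p = 0.000553 and 3.51e-06). Uhrf1 changed by -1.24 ± 0.17 and -2.15 ± 0.17 (adjusted p = 8.91e-05 and 1.56e-07), and Cdc6 by -1.44 ± 0.19 and -2.05 ± 0.19 (adjusted p = 4.82e-05 and 7.55e-07), in Mst1KO and WT in that order. Cdt1, Gins3, Gins4, Pold2, Fen1, Rpa2 and Tk1 were called in neither genotype.

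**Figure D3:**
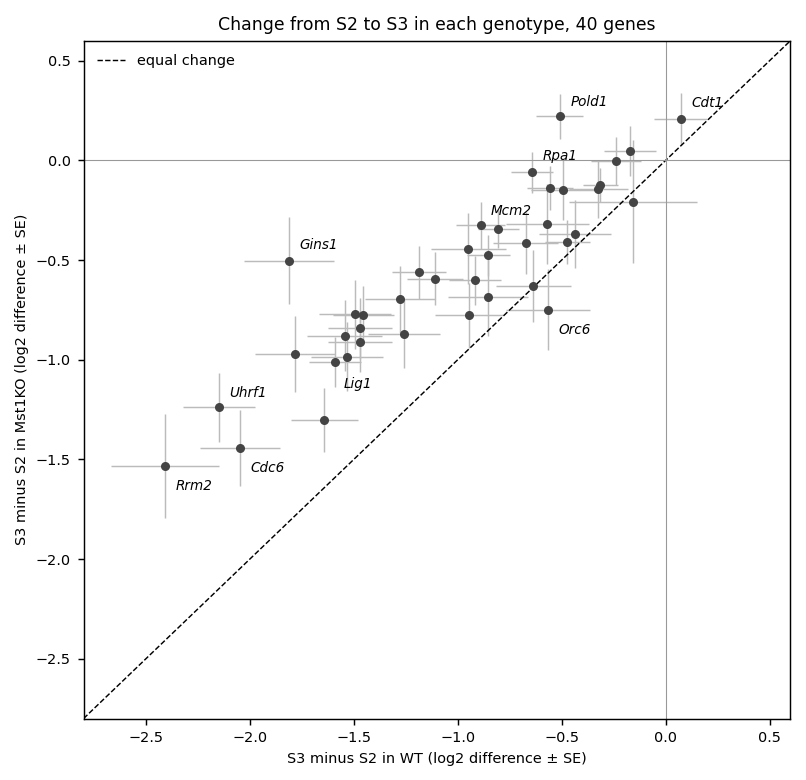
Log2 difference of S3 minus S2 in Mst1KO (vertical axis) against the same difference in WT (horizontal axis) for 40 genes, with SE bars and a dashed line of equal change. Of the 40 points, 38 lie above the line, Gins1 and Pold1 far from it, and Orc6 lies below it.

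The presence of E2F letters in the promoter window went with modest differences in size. The S2 to S3 median was -0.60 in Mst1KO and -1.03 in WT over the 14 genes with the letters, and -0.52 and -0.75 over the 20 measured genes whose windows lack them. Both sets held genes with large and with small falls: Rrm2, without the letters, had the largest WT fall in this step, and Cdt1, with them, differed by 0.07 in WT. These medians are descriptions with no test.

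Between genotypes most of the genes had slightly lower group means in Mst1KO at S1 and S2. At S1, limma called 0 of 40 genes in either direction, against 0.33% of all genes; at an unadjusted p below 0.05, 1 gene was lower (Chaf1a) and 0 were higher, where 4.63% and 6.55% of all genes were. The difference was negative for 37 of 40 genes, against 48.1% of all genes, and its median was -0.15. Chaf1a read 7.65, 7.55 and 7.67 in Mst1KO, against 8.04, 7.96 and 8.0 in WT, with no overlap (-0.37 ± 0.16; adjusted p = 0.391). In all, 10 genes had every Mst1KO array below every WT array (7.9% of all genes), among them Orc6, Mcm2, Mcm6 and Prim2, and 0 had them all above (10.2%).

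At S2, limma again called 0 of 40 genes, against 1.17% of all genes. The difference was negative for 39 of 40 genes, against 46.6% of all genes, with a median of -0.25. At an unadjusted p below 0.05, 12 genes were lower and 0 higher, where 5.65% and 7.7% of all genes were. The lowest p belonged to Pole, which read 7.55, 8.22 and 8.15 in Mst1KO, against 8.37, 8.60 and 8.63 in WT, with no overlap (-0.56 ± 0.15; adjusted p = 0.076). Cdc45 differed by -0.63 ± 0.19 and Mcm10 by -0.45 ± 0.17 (adjusted p = 0.136 and 0.247). For 13 genes every Mst1KO array lay below every WT array, against 7.12% of all genes.

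At S3 the sign was the other way for most genes, while the array medians of the 40 genes overlapped between genotypes. The difference was positive for 30 of 40 genes, against 52.1% of all genes, with a median of 0.18, and 3 genes were called higher (2.35% of all genes were) and 0 lower (1.05%). At an unadjusted p below 0.05, 12 genes were higher and 0 lower, where 10.2% and 6.51% of all genes were. Every Mst1KO array lay above every WT array for 10 genes (13.2% of all genes) and below for Fen1 alone (9.79%). Across stages, 28 of the 40 genes were lower in Mst1KO at S1 and at S2 and higher at S3. This sign pattern was not counted over all genes, and genes are not independent replicates. The 3 genotype comparisons share no arrays, but with 3 mice per genotype they could share mice. They cannot be taken as independent.

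Gins1, a subunit of the replicative helicase, had the largest difference. It read 6.12, 6.12 and 5.97 on the Mst1KO S3 arrays, against 4.73, 4.81 and 5.47 on the WT S3 arrays, with no overlap and with 2 WT arrays at the level of the array medians. It was 1.06 ± 0.22 higher in Mst1KO, which is 2.08-fold (adjusted p = 0.0121). At S1 and S2 its arrays overlapped, at 7.15, 7.27 and 7.45 and then 6.52, 6.49 and 6.70 in Mst1KO, against 7.60, 6.93 and 7.68 and then 6.48, 6.74 and 7.23 in WT. The call at S3 was lost without WT S3 replicate 1 (adjusted p = 0.0583).

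Rpa1, the large subunit of the single-strand binding protein, read 8.79, 8.72 and 8.89 in Mst1KO, against 8.14, 8.30 and 8.40 in WT at S3, again with no overlap. It was 0.52 ± 0.10 higher (adjusted p = 0.00912). It was lost without Mst1KO S3 replicate 3 and when a gene's probe sets were averaged (adjusted p = 0.0556 and 0.106). Pold1, whose 18 values are given above, was 0.44 ± 0.11 higher at S3 with no overlap (adjusted p = 0.0442) and was not called in any of the 6 fits without an array (log2 differences of 0.37 to 0.48). Next in p were Uhrf1 (0.54 ± 0.17; adjusted p = 0.109), Mcm2 (0.33 ± 0.12; adjusted p = 0.142), Lig1 (0.35 ± 0.13; adjusted p = 0.156) and Rfc5 (0.28 ± 0.10; adjusted p = 0.17), none of them called.

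Single arrays moved this count. It was 1 without WT S3 replicate 1 (Rpa1) and 1 without Mst1KO S3 replicate 3 (Gins1). It was 6 without WT S3 replicate 3, where Rrm2, Uhrf1, Mcm3 and Pola1 joined Gins1 and Rpa1 and Pold1 was not called. That array had the highest median of the 40 genes among the WT S3 arrays, 7.20 against 6.90 and 7.06.

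**Figure D4:**
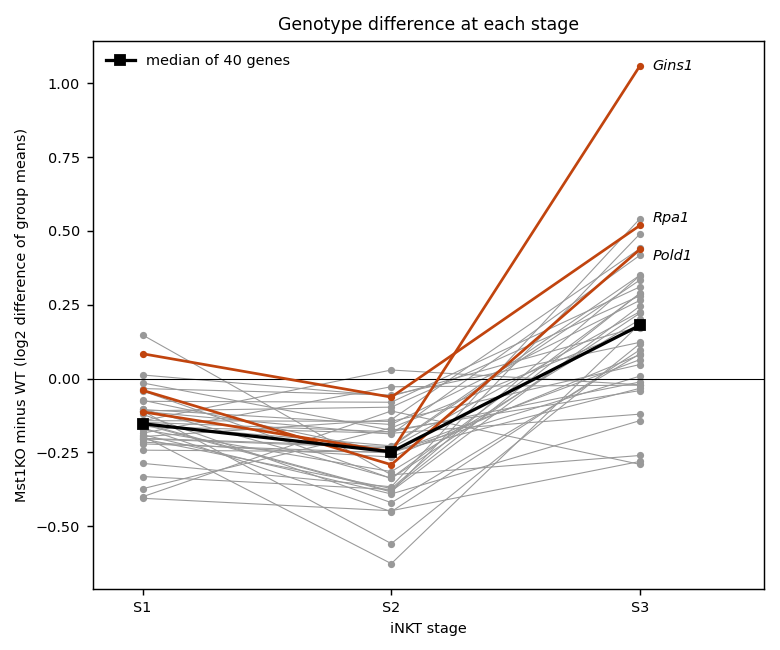
Log2 difference of Mst1KO minus WT (vertical axis) at S1, S2 and S3 (horizontal axis) for 40 genes, with the 3 genes called at S3 in orange and the median in black. The median lies at -0.15, -0.25 and 0.18, and Gins1 reaches 1.06 at S3.

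**Figure D5:**
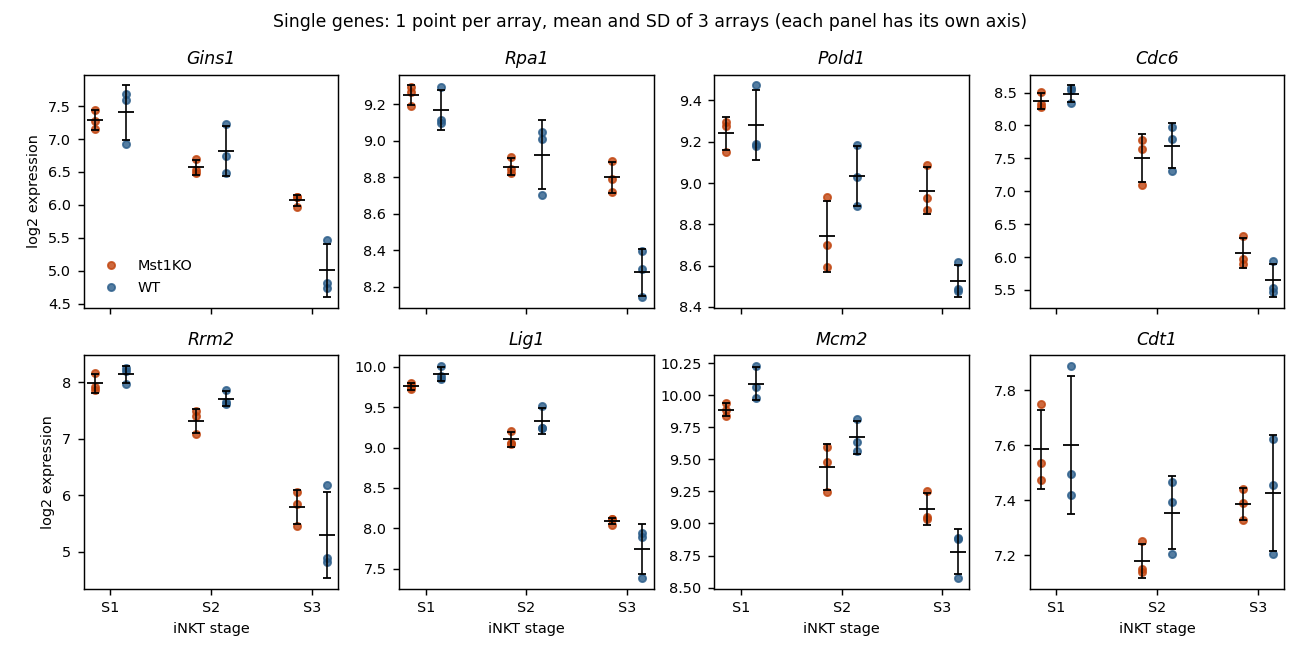
Log2 expression (vertical axis, its own scale in each panel) of 8 genes by stage, with Mst1KO left of WT, 1 point per array and bars of mean and SD over 3 arrays. Gins1, Rpa1 and Pold1 are separated by genotype at S3, Lig1 and Mcm2 are lower in Mst1KO at S1 and higher at S3, and Cdt1 has no descent from S2 to S3.

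The change from S2 to S3 was compared between genotypes in the same model, as a difference of differences. It was positive, meaning a less negative or more positive change in Mst1KO, for 38 of 40 genes (49.7% of all genes), with a median of 0.44, and 0 of the 40 were called, against 0.368% of all genes. At an unadjusted p below 0.05, 21 genes were positive and 0 negative, where 6.11% and 5.13% of all genes were. The lowest p belonged to Pold1 (0.73 ± 0.16; adjusted p = 0.0673), Gins1 (1.31 ± 0.31; adjusted p = 0.0914) and Rpa1 (0.58 ± 0.14; adjusted p = 0.108). The exceptions in sign were Orc6 and Gins3.

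That count was 3 without WT S2 replicate 1 (Gins1, Pold1 and Rpa1), 4 without WT S3 replicate 3 (Gins1, Mcm3, Rrm2 and Uhrf1) and 1 without Mst1KO S2 replicate 3 (Pold1). The change from S1 to S2 differed by a median of -0.07, with 0 of 40 genes called against 0.0153% of all genes. At an unadjusted p below 0.05, 1 gene was lower (Pole, -0.45 ± 0.21; adjusted p = 0.725) and 0 higher, where 3.31% and 3.46% of all genes were.

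Other genes of the pathway fell less uniformly. Of 35 further replication genes tested, 13 were called lower and 1 higher from S2 to S3 in Mst1KO, and 21 lower and 0 higher in WT. Of all genes, 9.18% were called lower and 8.01% higher in Mst1KO, and 13.2% and 10.4% in WT. Ticrr, needed for origin firing, changed by -1.54 ± 0.13 in Mst1KO and by -2.20 ± 0.13 in WT (adjusted p = 3.42e-07 and 4.42e-09). The histone chaperone gene Asf1b changed by -1.61 ± 0.17 and -2.13 ± 0.17. Donson, which helps to assemble the helicase, was the gene called higher in Mst1KO (0.91 ± 0.15; adjusted p = 0.000312) and differed by 0.39 ± 0.15 in WT (adjusted p = 0.0673).

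Of 30 further nucleotide synthesis genes, 11 were called lower and 1 higher in Mst1KO, and 15 lower and 3 higher in WT, from S2 to S3. The shares of all genes were 9.18% lower and 8.01% higher in Mst1KO, and 13.2% and 10.4% in WT. Dctpp1, which removes unwanted deoxynucleotides, changed by -0.98 ± 0.14 in Mst1KO and by -1.22 ± 0.14 in WT (adjusted p = 0.000126 and 8.11e-06). Dguok, the mitochondrial deoxyguanosine kinase, was the gene that rose in Mst1KO (0.53 ± 0.12; adjusted p = 0.00428). The medians of this list, -0.26 in Mst1KO and -0.34 in WT, were closer to 0 than those of the 40 genes, and a test of the difference was not made.

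Of 37 regulators of the passage from G1 to S phase, 17 were called lower and 3 higher in Mst1KO, and 21 lower and 2 higher in WT, from S2 to S3. Over all genes the shares were 9.18% lower and 8.01% higher in Mst1KO, and 13.2% and 10.4% in WT. E2f8, an E2F family repressor, changed by -2.17 ± 0.22 in Mst1KO and by -3.07 ± 0.22 in WT (adjusted p = 2.74e-06 and 3.51e-08). E2f2, an E2F family activator, changed by -1.06 ± 0.12 and -2.0 ± 0.12 (adjusted p = 1e-05 and 6.42e-09). All 24 mitosis genes tested were called lower in both genotypes, with medians of -1.76 in Mst1KO and -2.55 in WT.

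Between genotypes, E2f2 read 5.31, 5.11 and 5.20 on the Mst1KO S3 arrays, against 4.59, 4.68 and 4.29 on the WT S3 arrays, which lay below the array medians. It did not overlap and was 0.68 ± 0.12 higher in Mst1KO (adjusted p = 0.00455), a call kept in all 6 fits without an array. Its S2 to S3 change also differed between genotypes (0.94 ± 0.17; adjusted p = 0.0192), though not in 4 of 12 such fits (WT S2 replicate 2, Mst1KO S2 replicate 1, Mst1KO S3 replicates 1 and 3). At S3 the lists further held called increases of Rb1, the retinoblastoma gene (0.37 ± 0.09; adjusted p = 0.0264), Gart, of purine synthesis (0.40 ± 0.09; adjusted p = 0.0263), and Timeless, of the fork protection complex (0.46 ± 0.11; adjusted p = 0.0339).

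Dguok (0.46 ± 0.12; adjusted p = 0.0403), Cdk1 (0.74 ± 0.20; adjusted p = 0.0478) and Aurka (0.72 ± 0.19; adjusted p = 0.0481) were also called higher at S3. The mitosis list had a median difference of 0.54 at S3, with 2 of 24 genes called higher, where 2.35% of all genes were. The medians of the further replication, further nucleotide and regulator lists were 0.10, 0.14 and 0.10. Each of Rb1, Gart, Timeless, Dguok, Cdk1 and Aurka lost its call in 4 to 6 of 6 fits without an array, in each case without Mst1KO S3 replicate 2 and without replicate 3. Those of Rb1 and Gart were also lost when the probe sets of a gene were averaged (adjusted p = 0.607 and 0.825). At S2 the single call was Atad5, which unloads the Pcna clamp, lower in Mst1KO (-0.74 ± 0.15; adjusted p = 0.0243) and lost in 3 of 6 fits (WT S2 replicate 2, Mst1KO S2 replicates 1 and 2). At S1 limma called 0 genes of these 4 lists, against 0.33% of all genes. At an unadjusted p below 0.05 the further replication list had 1 higher and 5 lower, and the further nucleotide list 2 and 0. The regulators had 3 and 1, and the mitosis list 0 and 1. Of all genes, 6.55% were higher and 4.63% lower at that threshold.

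Markers of T cells were present on every array, and those of some other cells moved with stage and genotype. Cd3d, Cd3e, Cd3g and Zbtb16, the gene of the iNKT factor PLZF, were above the array median on every array, and Klrb1c, the NK1.1 gene, was 5.88 ± 0.23 higher at S3 than at S1 in Mst1KO and 5.43 ± 0.23 in WT. Its group means were 2.90, 4.94 and 8.78 over the stages in Mst1KO and 3.08, 5.27 and 8.51 in WT, and at S2 it was above the array median on 1 of 3 Mst1KO arrays and 3 of 3 WT arrays. Cd44 averaged 5.66, 7.74 and 8.40 in Mst1KO and 5.53, 7.49 and 8.04 in WT, above the array median on all arrays at S1 too. Cd24a, the gene of the CD24 antigen that the sort gated out, was above it only at S3, on 3 of 3 Mst1KO and 2 of 3 WT arrays. Of 8 macrophage and dendritic cell markers 6 were tested, and 6 of them in Mst1KO and 4 in WT were called higher at S3 than at S1. Of all genes, 12.3% in Mst1KO and 15.4% in WT were. Their summed linear level was 163 to 184 at S1, 301 to 351 at S2 and 440 to 692 at S3 in Mst1KO, and 153 to 185, 205 to 218 and 347 to 382 in WT. It was thus higher in Mst1KO at S2 and S3, where Itgax at S2 (0.93 ± 0.18; adjusted p = 0.0191) and C1qb at S3 (0.94 ± 0.23; adjusted p = 0.0364) were called. The Itgax call was lost without WT S2 replicates 1 and 3 and Mst1KO S2 replicates 1 and 2, and that of C1qb without WT S3 replicates 1 and 2 and Mst1KO S3 replicates 2 and 3, each left out singly.

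Their part in the stage and genotype differences of the replication genes was not tested. Of 5 B cell markers only Cd79b was tested, at a linear level of 28.6 to 56.0 in Mst1KO and 22.7 to 45.6 in WT, and it was not called between genotypes. It was above the array median on 9 of 9 Mst1KO arrays and 6 of 9 WT arrays, Cd79a on 1 of 18 arrays, and Ms4a1 and Pax5 on 0 of 18. Of 9 markers of immature or conventional thymocytes 6 were tested, with a summed level of 398 to 952 in Mst1KO and 407 to 750 in WT. Ccr9 alone of them was called between genotypes, lower in Mst1KO at S3 (-0.68 ± 0.16; adjusted p = 0.0284), a call lost without WT S3 replicate 1 or 2 or Mst1KO S3 replicate 3. Cd4, Cd8b1 and Ptcra were above the array median on 18 of 18 arrays and Ccr9 on the 12 arrays of S1 and S2. Dntt was above it on 9, Cd24a on 5, Cd8a on 1 and Rag2 on 0 of 18. Dntt was 0.77 ± 0.22 higher in Mst1KO at S3 without a call (adjusted p = 0.0684), and 1.39 ± 0.22 higher at S3 than at S1 in Mst1KO (adjusted p = 0.000151). Other tested markers of this list went the other way or moved less. At S1 and then S3 in Mst1KO, Cd4 averaged 8.66 and 7.41, and Ccr9 6.76 and 3.46. Cd8b1 averaged 7.32 and 6.81, Ptcra 5.26 and 5.38, and Cd24a 4.77 and 5.14.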

How the data were processed

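RNA of 18 thymic iNKT cell samples was amplified and hybridised to mouse gene arrays, 3 arrays per genotype and stage. The authors' deposited values are on a log2 scale. Per the submitters' processing notes, RMA and Affymetrix Expression Console 1.1 were used. RMA sets the arrays to a common distribution, so differences are relative to the other genes. The number of arrays limits the precision.

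Of 41345 probe sets, 23521 had 1 gene symbol, 1814 several and 16010 none. Each gene was read from its brightest single-symbol probe set and kept if above the array's own median on at least 3 of 18 arrays, which left 13034 genes. A mean per group was fitted to all 18 arrays with limma 3.58.1 (R 4.3.3), with Benjamini-Hochberg adjustment over all genes and a threshold of 0.05. The fit was tested on simulated data.

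The genes and all lists were chosen with earlier results of these data known. Values are given in full for up to 3 genes of each role class with the lowest p and for every gene of a comparison with 5 or fewer calls. Other lists give up to 3 genes with the lowest p, and all genes called between genotypes. Gene symbols are those of the platform annotation. Promoter windows are from RefSeq (GRCm38.p6), matched by symbol. Alternatives were other filters, repeated quantile normalisation, median centring, a variance trend, array weights, averaged probe sets, fewer groups, a replicate block and leaving out each array.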

Additional observations from a re-analysis of the deposited data

Results flagged for a closer look

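For 3 genes every Mst1KO array lay on opposite sides of every WT array at different stages. This pattern was not counted over all genes. Every Mst1KO array lay below every WT array for 7.9% of all genes at S1 and 7.12% at S2. At S3 every Mst1KO array lay above for 13.2%. Mcm2 differed between Mst1KO and WT by 0.33 at S3 and by -0.20 at S1, so that S1 minus S3 was -0.54. Pole2 differed by 0.44 at S3 and by -0.20 at S1, a gap of -0.64. Lig1 differed by 0.35 at S3, by -0.16 at S1 and by -0.23 at S2, giving gaps of -0.51 for S1 minus S3 and -0.58 for S2 minus S3. The S2 and S3 differences of Lig1 were compared by limma as the genotype difference in the S2 to S3 change, which was not called (0.58 ± 0.18; adjusted p = 0.194). The S1 against S3 gaps of all 3 genes were not tested.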

How the results depend on the processing

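No called gene changed direction in any refit. Of 924 refits of the 154 calls without an array, 111 lost the call, and of 1382 refits under other settings 38 did. Calls kept in every fit without an array numbered 31 of 34 in Mst1KO and 34 of 38 in WT from S1 to S3, 18 of 24 and 30 of 32 from S2 to S3, and 4 of 16 and 2 of 7 from S1 to S2.

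Without single arrays, the number of the 40 genes called ran over 0 to 0 for Mst1KO against WT at S1 and at S2, 1 to 6 at S3, 6 to 12 for S1 to S2 in Mst1KO and 2 to 8 in WT. It ran over 18 to 24 for S2 to S3 in Mst1KO and 30 to 36 in WT, 32 to 33 for S1 to S3 in Mst1KO and 34 to 37 in WT, and 0 to 0 and 0 to 4 for the genotype difference in the S1 to S2 and S2 to S3 changes.

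With the filter at the 75th percentile and with a variance trend and robust fit, 1 gene (Pole) was called between genotypes at S2 instead of 0, and 1 (Pold1) for the genotype difference in the S2 to S3 change instead of 0. With only the groups compared, which leaves fewer samples, 1 gene was called at S3 instead of 3, and 3 for S1 to S2 in WT instead of 7. The labels do not say that a replicate number marks shared mice, and the numbers were not treated as pairs. Deviations from group means of same-numbered arrays of a genotype correlated at -0.05 to 0.21 (median 0.06), against a median of -0.02 for other numbers, and 17 of 18 arrays correlated best with their own number, a hint from the data that the design does not give. The replicate block gave each number an effect shared by both genotypes, so it is not a pairing by mouse. A block within genotype was not fitted. With the shared block, 1 gene (Pole) was called between genotypes at S2 and 4 at S3 (Uhrf1 added). It gave 11 calls for S1 to S2 and 34 for S2 to S3 in WT, and 2 (Gins1 and Pold1) for the genotype difference in the S2 to S3 change. Repeated quantile normalisation turned the split over all genes between genotypes at S3 to 230 higher and 173 lower, against 306 and 137, that for S2 to S3 in Mst1KO to 880 and 1563, against 1044 and 1196, and that of the genotype difference in this change to 31 and 20, against 34 and 14. The number of the 40 genes higher in Mst1KO at S3 was 29 under it and 33 with median centring, against 30. Signals near the array medians may limit Orc1, Gins1 and Rrm2 at S3.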

Other observations

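The probe set shared by Rfc4 and Eif4a2 averaged 7.72 ± 0.09, 7.42 ± 0.24 and 6.77 ± 0.27 at S1, S2 and S3 in Mst1KO, against 8.13 ± 0.10, 7.92 ± 0.07 and 6.58 ± 0.05 in WT (SD, n = 3 each). Its arrays did not overlap between genotypes at S1 and S2, and which of the 2 genes it reads was not tested. A second, dimmer Rrm2 probe set, which was not used above, averaged 5.78, 5.16 and 4.43 in Mst1KO and 5.85, 5.46 and 3.65 in WT, and so also descended with stage in both genotypes. A second Fen1 probe set, above the array median on 15 of 18 arrays, averaged 5.08, 4.9 and 4.62 in Mst1KO and 5.23, 5.24 and 5.22 in WT, and so stayed nearly level in WT, where the probe set used above was called lower at S3 than at S1.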
